A study of Sus scrofa with 32 samples.

Results

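CST6, UCHL1 and UBE2J1 are 3 genes of protein turnover that were chosen by their difference between 2 pig breeds, out of 25322 gene IDs in the deposited table of muscle RNA-seq counts. CST6 (ENSSSCG00000012960) and UCHL1 (ENSSSCG00000022945) were picked for the breed comparison in the semimembranosus muscle (S, a ham muscle), and UBE2J1 (ENSSSCG00000004317) for the breed comparison in the longissimus dorsi (LD, the loin muscle). Those 3 breed differences are therefore given as a description with no test. Tests were kept to the difference between the muscles and to the breed difference in the muscle that did not enter the choice, which comes from other libraries of the same pigs.

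Whole muscle was taken from 16 gilts, 8 of the Pulawska breed (PUL) and 8 of the Polish Landrace (PL). Each gilt gave 1 LD and 1 S library, which makes 32 libraries in 4 groups of 8. PUL is a native breed of Poland maintained as a genetic resource, whereas PL belongs to the white breeds, is rich in lean meat and serves as a maternal component in crosses. The labels give an age of 180 days for every gilt, while the study describes slaughter at a set weight and an age that varied. None of the groups was treated, and the pigs were unrelated, came from different farms and were fattened and slaughtered at one test station, so farm and breed were not tested apart. The submitters' labels name PUL the breed of high shear force and PL that of low shear force, while the tenderness the study describes runs the other way; the groups are named here by breed. In bulk muscle, fewer cells of a type and less RNA per cell cannot be told apart.

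CST6 encodes cystatin E/M, a secreted inhibitor of cysteine proteases that binds legumain and several cathepsins, best known from skin. UCHL1 encodes a ubiquitin C-terminal hydrolase that frees ubiquitin from small adducts and is abundant in neurons. UBE2J1 encodes a ubiquitin-conjugating enzyme anchored in the membrane of the endoplasmic reticulum (ER), where it serves ER-associated degradation (ERAD), the route by which misfolded proteins leave the ER for the proteasome. Cathepsins are the lysosomal proteases of muscle, and the ubiquitin and proteasome system takes apart myofibrillar and ER proteins.

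The libraries held 8821273 to 24761853 counts. CST6 had 125 to 1021 counts per library (median 256.5), UCHL1 19 to 458 (median 91) and UBE2J1 26 to 177 (median 77.5). The lowest UCHL1 count, 19, has a 95% Poisson interval of 11.4 to 29.7, which covers counting error only. Each of the 3 genes carried exactly the values of 1 deposited transcript in 32 of 32 libraries, so no isoform could be compared. Levels are CPM, the gene's count as a share of the library total, scaled by edgeR's trimmed mean factors (TMM), not divided by length, so they are compared within a gene only. ACTA1 and DES, the skeletal muscle genes of the marker list that could be matched, had a summed level of at least 35362.6 CPM in every library. Both libraries of PL pig 14 stood apart: over genes, their deviations from the group means ran against each other (r = -0.52), while the median pig had r = 0.196. Albumin (ALB, a liver gene) reached 7.67 to 919.6 CPM in the 10 libraries from PUL pigs 1 to 5, against 0 to 4.27 CPM in the other 22. The main values are also given without these pigs where that moved them.

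CST6, the protease inhibitor, was higher in PUL in the muscle it was chosen on. In S, the PUL libraries ran from 17.6 CPM (pig 4) over a median of 24.3 to 36.9 CPM (pig 3), with a mean of 25.4 ± 6.10 (SD, n = 8). The PL libraries of S ran from 9.25 CPM (pig 7) over a median of 15.4 to 18.9 CPM (pig 18), with a mean of 14.9 ± 3.33 (SD, n = 8). In S, 7 of 8 PUL libraries lay above every PL library, and only pig 4 fell among them. The mean was 1.70-fold higher in PUL, and the fitted log2 fold change, PL over PUL, was -0.76 (SE 0.17).

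In LD, which did not enter the choice, CST6 overlapped more. The PUL libraries ran from 10.8 CPM (pig 4) over a median of 19.6 to 33.0 CPM (pig 1), with a mean of 20.3 ± 8.75 (SD, n = 8). The PL libraries ran from 11.0 CPM (pig 7) over a median of 13.96 to 18.8 CPM (pig 18), with a mean of 14.2 ± 2.44 (SD, n = 8). In LD, 4 of 8 PUL libraries lay above every PL library and 1 lay below them all. The log2 fold change, PL over PUL, was -0.52 (SE 0.23). The quasi-likelihood test of edgeR gave it an unadjusted p of 0.0375 and an adjusted p of 0.663. The breed difference of CST6 in LD therefore did not pass. No gene of 10792 passed in that comparison, a share of 0%, where a call needs an adjusted p at or under 0.05 and a fold of at least 1.3; 772 genes had an unadjusted p under 0.05 and DESeq2 called 19.

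UCHL1, the ubiquitin hydrolase, had the widest breed difference of the 3 genes on the log2 scale. In S, the muscle it was chosen on, the PUL libraries ran from 6.19 CPM (pig 5) over a median of 9.47 to 24.6 CPM (pig 2), with a mean of 11.9 ± 6.28 (SD, n = 8). The PL libraries of S ran from 1.70 CPM (pig 14) over a median of 3.74 to 8.61 CPM (pig 10), with a mean of 4.77 ± 2.67 (SD, n = 8). In S, 5 of 8 PUL libraries lay above every PL library, and 5 of 8 PL libraries lay below every PUL library. The mean was 2.49-fold higher in PUL, and the log2 fold change, PL over PUL, was -1.30 (SE 0.35).

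UCHL1 was also lower in the PL libraries of LD, without passing the test. The PUL libraries of LD ran from 2.82 CPM (pig 4) over a median of 6.82 to 15.2 CPM (pig 5), with a mean of 7.58 ± 3.85 (SD, n = 8). The PL libraries of LD ran from 1.37 CPM (pig 10) over a median of 2.22 to 5.42 CPM (pig 7), with a mean of 2.88 ± 1.61 (SD, n = 8). Here 6 of 8 PUL libraries lay above every PL library, and 6 of 8 PL libraries lay below every PUL library. The log2 fold change was -1.38 (SE 0.36), with an unadjusted p of 0.00106 in edgeR's test. The adjusted p was 0.481 with edgeR and 0.0631 with DESeq2. Over 24 alternative settings this log2 fold change lay between -1.58 and -1.16, and the adjusted p between 0.0631 and 0.962.

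UBE2J1, the ERAD conjugating enzyme, was higher in PL in LD, the muscle it was chosen on. The PUL libraries of LD ran from 2.36 CPM (pig 3) over a median of 3.97 to 4.78 CPM (pig 5), with a mean of 3.79 ± 0.817 (SD, n = 8). The PL libraries of LD ran from 4.89 CPM (pig 9) over a median of 6.19 to 7.34 CPM (pig 18), with a mean of 6.16 ± 0.893 (SD, n = 8). All 8 PL libraries lay above all 8 PUL libraries, as for 1 of 10792 genes (0.00927%); since UBE2J1 was chosen on these libraries, nothing is read from that. The gap between the breeds was narrow, from 4.78 to 4.89 CPM. Library size alone in place of the TMM factors was a planned setting of the fits. The levels under it were added after the data were seen. There the highest PUL library was at 6.68 CPM and the lowest PL library at 4.07 CPM. With that scaling, 3 of 8 PL libraries lay above every PUL library. With the TMM factors, the mean was 1.63-fold higher in PL, and the log2 fold change was 0.70 (SE 0.17). It was 0.50 (SE 0.24) with library size alone.

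In S, UBE2J1 did not pass the breed test. The PUL libraries of S ran from 3.84 CPM (pig 13) over a median of 4.38 to 5.51 CPM (pig 16), with a mean of 4.55 ± 0.629 (SD, n = 8). The PL libraries of S ran from 2.33 CPM (pig 14) over a median of 4.91 to 7.78 CPM (pig 10), with a mean of 4.99 ± 1.74 (SD, n = 8). The PL libraries lay on both sides, with 4 of 8 above every PUL library and 1, that of pig 14, below them all. The log2 fold change was 0.14 (SE 0.21), with an unadjusted p of 0.502 and an adjusted p of 0.803 in edgeR's test. Without pig 14 it was 0.25 (SE 0.18). No gene of 10687 passed in S, a share of 0%, while 1252 had an unadjusted p under 0.05 and DESeq2 called 103.

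**Figure D1:**
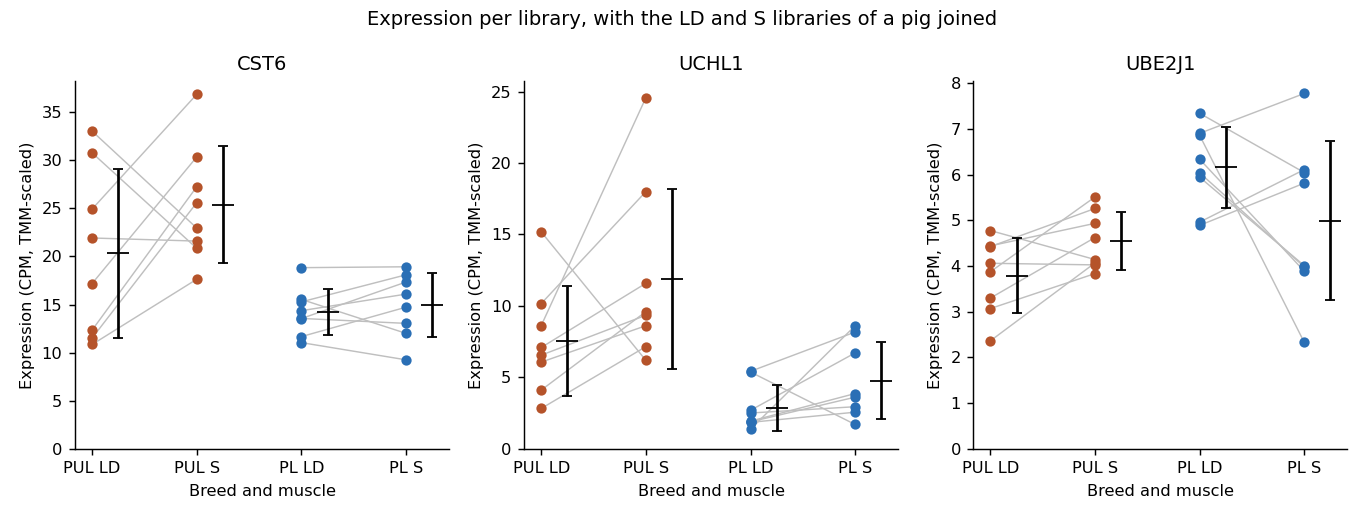
Expression of CST6, UCHL1 and UBE2J1 in CPM (vertical axis, from 0) in the 4 groups of breed and muscle; each point is a library, grey lines join the LD and S values from one pig, and black bars give the mean ± SD of 8 libraries. CST6 and UCHL1 sit higher in PUL (orange) than in PL (blue), and UBE2J1 in LD has its lowest PL library at 4.89 CPM and its highest PUL library at 4.78 CPM.

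The order of the 4 group means was the same for CST6 and UCHL1. For CST6 it fell from PUL S (25.4 CPM) over PUL LD (20.3) and PL S (14.9) to PL LD (14.2). For UCHL1 it fell from PUL S (11.9 CPM) over PUL LD (7.58) and PL S (4.77) to PL LD (2.88). For UBE2J1 it fell from PL LD (6.16 CPM) over PL S (4.99) and PUL S (4.55) to PUL LD (3.79). Part of these orders came with the choice of the genes. That part is PUL S above PL S for CST6 and UCHL1, and PL LD above PUL LD for UBE2J1. No 2 neighbours in these orders were farther apart than the larger of their SDs. The nearest to that was UBE2J1 between PUL S and PUL LD, 0.762 CPM apart with a larger SD of 0.817 CPM. These SDs are between pigs and do not use the pairing of the muscles, which are compared within each pig below.

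The breed values were recomputed without the libraries in doubt. Without PUL pigs 1 to 5, the log2 fold change in S, PL over PUL, was -0.81 for CST6 and -1.31 for UCHL1. In LD it was -1.40 for UCHL1, -0.51 for CST6 and 0.70 for UBE2J1 without those pigs. Without PUL pigs 1 to 5, UBE2J1 in S moved most, from 0.14 to 0.04 (SE 0.32). Without PL pig 14, UBE2J1 in S was 0.25. UCHL1 then went from -1.38 to -1.58 in LD and from -1.30 to -1.17 in S. Leaving out any 1 pig kept the sign of all 6 breed values, with UBE2J1 in S nearest to 0 at 0.02 without PL pig 10.

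The muscles were compared within each pig, a contrast that the choice of the genes did not use. With the pig as a block and both breeds averaged, 11 of 11563 genes passed, 6 higher and 5 lower in S, which is 0.0951% of those tested; 670 had an unadjusted p under 0.05 and DESeq2 called 65. None of the 3 genes was among them. Without PL pig 14 the number of genes called was 78.

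UCHL1 was higher in S than in LD in 14 of 16 pigs. In PUL the difference within a pig, on the log2(CPM + 0.5) scale, ran from -1.23 (pig 5) over a median of 0.73 to 1.46 (pig 2), and 7 of 8 pigs were higher in S. In PL it ran from -1.42 (pig 14) over a median of 0.67 to 2.28 (pig 10), again with 7 of 8 higher in S. The 2 exceptions, PUL pig 5 and PL pig 14, had the opposite sign.

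The fitted log2 fold change of UCHL1, S over LD, was 0.70 (SE 0.24), with an unadjusted p of 0.00921 and an adjusted p of 0.579 in edgeR's test. An exact two-sided sign-flip permutation test over the 16 pigs gave p = 0.0181, and 0.0543 after Benjamini-Hochberg adjustment over the 3 genes, so the difference did not pass after adjustment. Without PL pig 14 the log2 fold change was 0.86 (SE 0.20) and the edgeR adjusted p 0.0653; DESeq2 on all pigs gave 0.179. Over 23 alternatives the log2 fold change lay between 0.57 and 0.86. By breed it was 0.69 (SE 0.33) in PUL and 0.72 (SE 0.35) in PL. The size of the PL value depended on single pigs, from 0.45 (SE 0.33) without pig 10 to 1.02 (SE 0.31) without pig 14. Its sign stayed the same whichever pig was left out. The PL value minus the PUL value was 0.03 (SE 0.47), and ran from -0.24 without pig 10 to 0.33 without pig 14; it is given with no test, since it contains the S breed difference on which UCHL1 was chosen.

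CST6 did not pass between the muscles. The difference within a pig ran from -0.55 (pig 13) over a median of 0.62 to 1.12 (pig 2) in PUL, on the log2(CPM + 0.5) scale. In PL it ran from -0.36 (pig 9) over a median of 0.08 to 0.35 (pig 15). CST6 was higher in S in 5 of 8 pigs of each breed, with a wider spread in PUL (SD 0.677) than in PL (SD 0.260). The fitted log2 fold change was 0.23 (SE 0.13) with an edgeR adjusted p of 0.901, and the exact sign-flip permutation test gave p = 0.110 (0.165 adjusted). By breed it was 0.41 (SE 0.18) in PUL and 0.05 (SE 0.18) in PL, a PL minus PUL difference of -0.36 (SE 0.26), which has no test for the same reason as for UCHL1.

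UBE2J1 averaged close to no difference between the muscles, with the breeds on opposite sides of 0. In PUL, 6 of 8 pigs were higher in S, from -0.18 (pig 5) over a median of 0.25 to 0.67 (pig 3) on the log2(CPM + 0.5) scale. In PL, 3 of 8 pigs were higher in S, from -1.38 (pig 14) over a median of -0.39 to 0.28 (pig 15). The mean of the breeds was a fitted log2 fold change of -0.04 (SE 0.13), with an edgeR adjusted p of 0.988 and an exact sign-flip permutation p of 0.766. It was 0.04 without PL pig 14.

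The fitted log2 fold change of UBE2J1, S over LD, was 0.28 (SE 0.18) in PUL and -0.36 (SE 0.18) in PL. The PL minus PUL difference was -0.64 (SE 0.26). It is given with no test, since it contains the LD breed difference on which UBE2J1 was chosen. Without pig 14 the PL value was -0.20 (SE 0.16) and the difference -0.48 (SE 0.22).

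**Figure D2:**
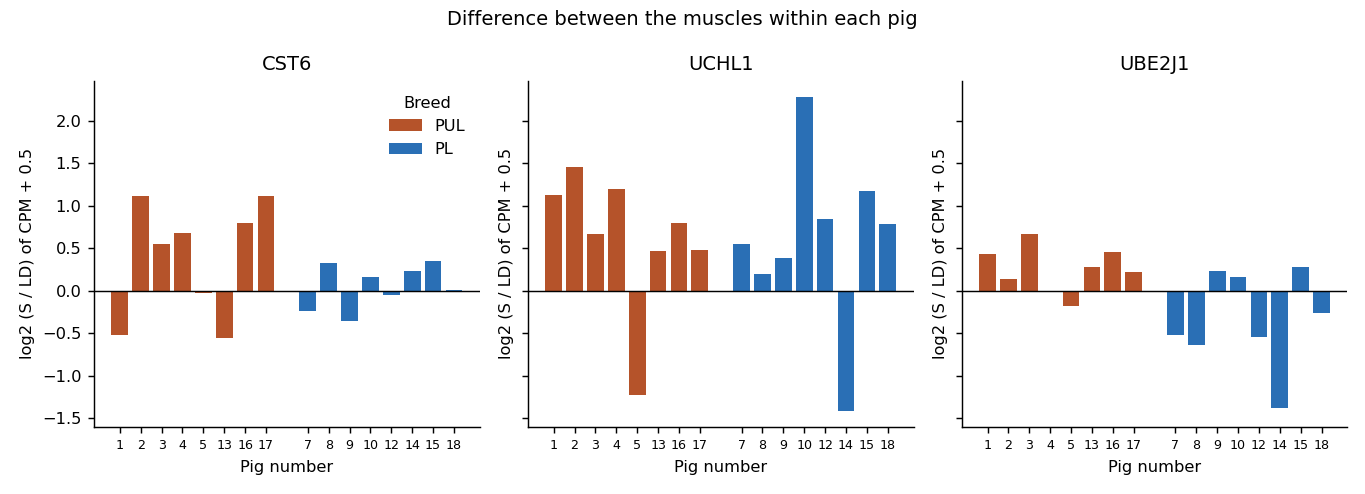
Difference between S and LD within each pig as log2(S / LD) of CPM + 0.5 (vertical axis) for CST6, UCHL1 and UBE2J1; each bar is a pig, named by its number on the horizontal axis, with PUL in orange and PL in blue. UCHL1 is above 0 in 14 of 16 pigs, with pigs 5 and 14 below, and UBE2J1 is above 0 in 6 PUL pigs and in 3 PL pigs.

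**Figure D3:**
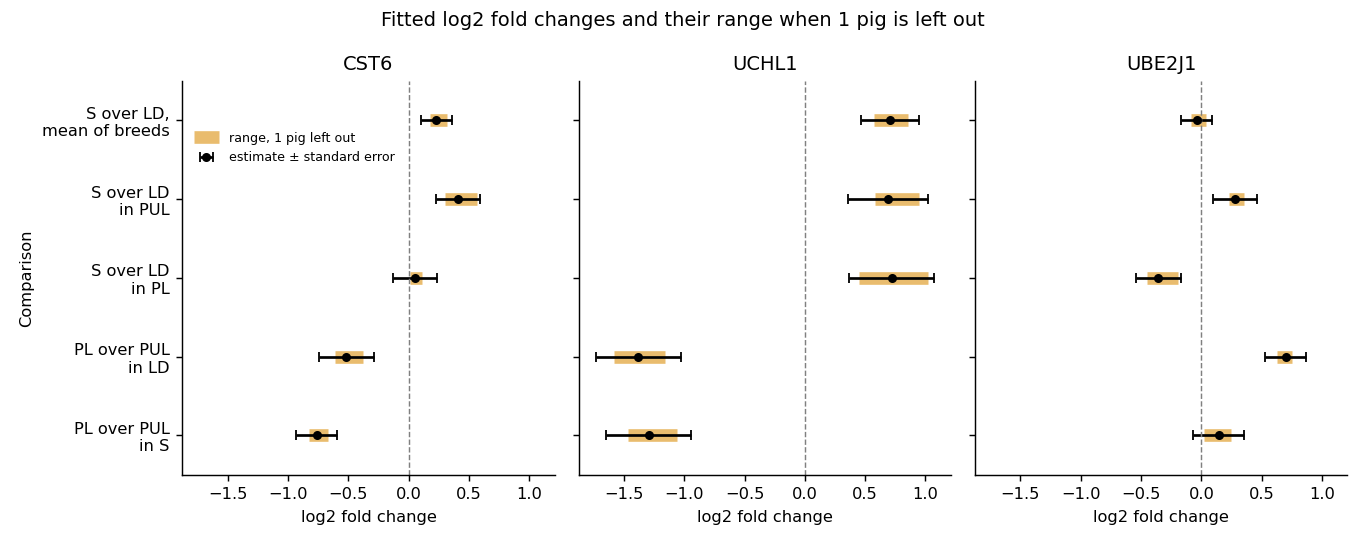
Fitted log2 fold changes (horizontal axis) of the 3 genes in the muscle and breed comparisons (vertical axis); points are estimates with their standard errors and pale bars give the range when 1 pig is left out. UCHL1 stays above 0 in the muscle comparisons and below 0 in both breed comparisons, while UBE2J1 in the mean of the breeds runs from -0.09 to 0.04.

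A pig with a high level in one muscle was not shown to have a high level in the other. Within a breed, over 8 pigs, 6 relations between log2 LD and log2 S levels were computed. CST6 in PL had the highest Pearson r, 0.638 (exact permutation p = 0.0892, adjusted p = 0.535). Its Spearman rho was 0.524 (exact permutation p = 0.197). Without pigs 7 and 18, r was -0.02. Here and below, the pigs left out were those farthest from the median LD level. Dropping them narrows the range of levels, so nothing is read from the change in r. The other 5 had r between -0.18 and 0.417 with exact permutation p from 0.305 to 0.807, all at an adjusted p of 0.807, and the adjusted p for rho was 0.977 in all 6. UCHL1 in PUL went from r = 0.235 to 0.748 without pigs 4 and 5, and UBE2J1 in PUL from 0.417 to -0.13 without pigs 3 and 13. Over all 11563 genes tested, the median r was 0.362 in PUL and 0.0205 in PL.

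**Figure D4:**
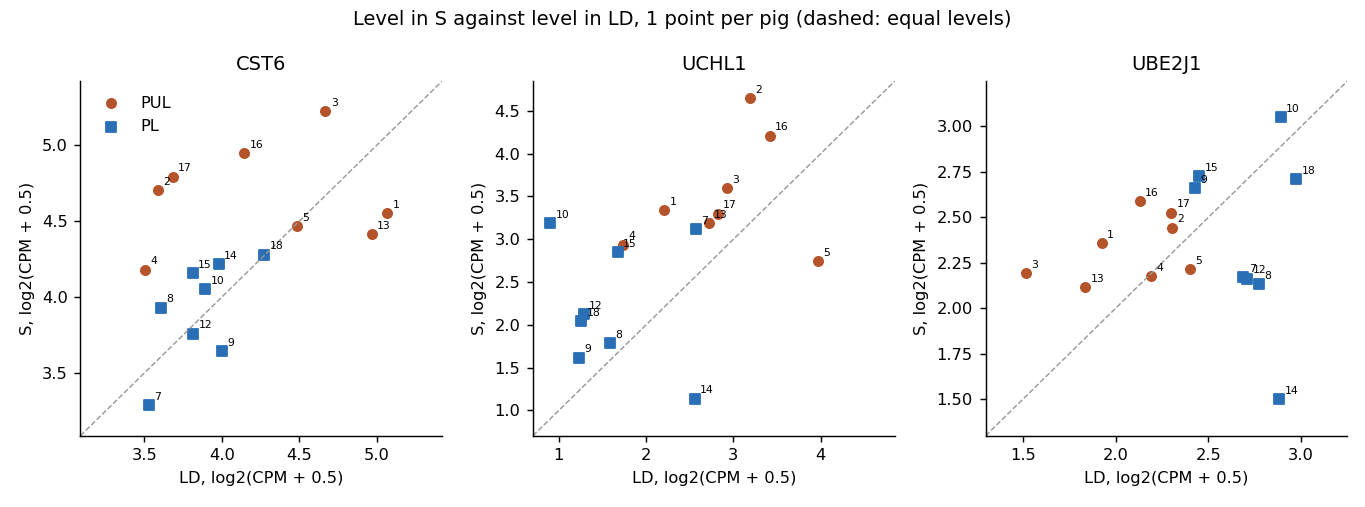
Level in S (vertical axis) against level in LD (horizontal axis), both as log2(CPM + 0.5), with 1 point per pig, pig numbers beside the points, PUL as orange circles, PL as blue squares and a dashed line of equal levels. Points scatter widely within each breed, and pig 14 lies far below the line for UCHL1 and UBE2J1.

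The 3 genes did not move as a set across the 32 libraries. Spearman's rho was 0.446 between CST6 and UCHL1, and 0.05 once the mean of each of the 4 groups was removed. Between UBE2J1 and UCHL1 it was -0.18, and 0.314 after that step; between UBE2J1 and CST6 it was -0.23 and -0.02. The libraries share pigs and scaling, so these values are descriptions.

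By the same measure over 32 libraries, the genes most like each of the 3 were looked up among the genes tested. For CST6 the nearest with a symbol were FAM210B (rho 0.653) and PRMT7, an arginine methyltransferase (0.641), beside 3 IDs with no paired symbol, ENSSSCG00000010790 having the highest value, 0.739. For UCHL1 they were MAOB, a mitochondrial amine oxidase (0.736), APOD, a lipid-binding lipocalin (0.694), and ZFAND2A (0.675), beside 2 IDs with no symbol. For UBE2J1 they were RACGAP1, a regulator of cytokinesis (0.648), TPD52 (0.624), NEPRO (0.616) and LTA4H, an enzyme of leukotriene synthesis (0.605), beside 1 ID with no symbol. With the group means removed, rho with UCHL1 was 0.313 for MAOB, 0.314 for APOD and 0.437 for ZFAND2A. With CST6 it was then 0.547 for FAM210B, 0.597 for PRMT7 and 0.647 for ENSSSCG00000010790. With UBE2J1 it was 0.530 for RACGAP1, 0.379 for TPD52, 0.668 for NEPRO and 0.375 for LTA4H.

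The partners and targets of the 3 proteins were looked at in 4 lists of other genes, with 36 genes tested between the muscles, 35 between the breeds in LD and 34 in S. None of the 36, the 35 or the 34 was called. Between the muscles 1 list gene, CTSC, had an unadjusted p under 0.05; between the breeds there were 3 in LD (ERLEC1 higher, MARCHF6 and VCP lower in PL) and 7 in S (LGMN, CTSC, UBB, UBE2G2, MARCHF6, RNF5 and STUB1, all with a negative value in PL over PUL). Those are 2.78%, 8.57% and 20.6% of the list genes tested, beside 5.79%, 7.15% and 11.7% of all genes, and the genes called were 0.0951%, 0% and 0% of all genes.

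Among the cystatins, the inhibitors related to CST6, 3 could be tested between the muscles and had a median log2 fold change, S over LD, of -0.23, with -0.01 over all genes. CSTB, a cytosolic cystatin, differed by 0.09 (SE 0.21) there. Between the breeds, PL over PUL, CSTB had 0.60 (SE 0.32) in LD, where CST6 had -0.52, and -0.05 (SE 0.24) in S. Among 10 genes of cathepsins and legumain, the proteases that cystatins inhibit, the median log2 fold change of PL over PUL was 0.31 in LD and -0.15 in S, with 0.01 and 0.02 over all genes. Of the 10, 8 were above 0 and 2 below in LD, and 4 above and 6 below in S. LGMN, the legumain that cystatin E/M binds, had a log2 fold change of -0.33 (SE 0.14) in S, PL over PUL, with an edgeR adjusted p of 0.382. CTSB and CTSL, lysosomal cathepsins, differed by -0.15 (SE 0.17) and -0.15 (SE 0.43) between the breeds in S, and by 0.34 (SE 0.25) and 0.86 (SE 0.54) in LD. The CTSL entry was low, with a mean of 1.65 CPM over all libraries. CTSC, a dipeptidyl peptidase of lysosomes, had 0.63 (SE 0.19) for S over LD with an edgeR adjusted p of 0.448, and -0.61 (SE 0.24) between the breeds in S.

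Among 5 genes of the UCH family and ubiquitin, the median log2 fold change of PL over PUL was -0.02 in LD and 0.00452 in S. UCHL3 and UCHL5, hydrolases related to UCHL1, differed by 0.18 (SE 0.12) and -0.12 (SE 0.17) between the breeds in S. UCHL1 had -1.30 there but was chosen on it, so nothing is read from that contrast. In LD, UCHL3 and UCHL5 had 0.21 (SE 0.15) and -0.02 (SE 0.18), where UCHL1 had -1.38 (SE 0.36). BAP1, a nuclear hydrolase of the family, differed by 0.00452 (SE 0.32) in S. UBB, a polyubiquitin gene, had -0.38 (SE 0.14) in S with an edgeR adjusted p of 0.314.

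Among the ERAD genes, the median log2 fold change of PL over PUL was -0.09 over 18 genes in LD and -0.06 over 17 genes in S. UBE2J2, the paralog of UBE2J1, differed by 0.07 (SE 0.18) between the breeds in LD. UBE2J1 had 0.70 there but was chosen on it, so nothing is read from that contrast. In S, UBE2J2 had -0.27 (SE 0.19), where UBE2J1 had 0.14 (SE 0.21). UBE2G2, a further ERAD conjugating enzyme, differed by -0.13 (SE 0.16) in LD and -0.41 (SE 0.19) in S. RNF5, a ubiquitin ligase of the ER membrane, had -0.54 (SE 0.16) in S with an edgeR adjusted p of 0.220. SEL1L, an adaptor of the ERAD ligase complex, had too few counts to be tested.

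**Figure D5:**
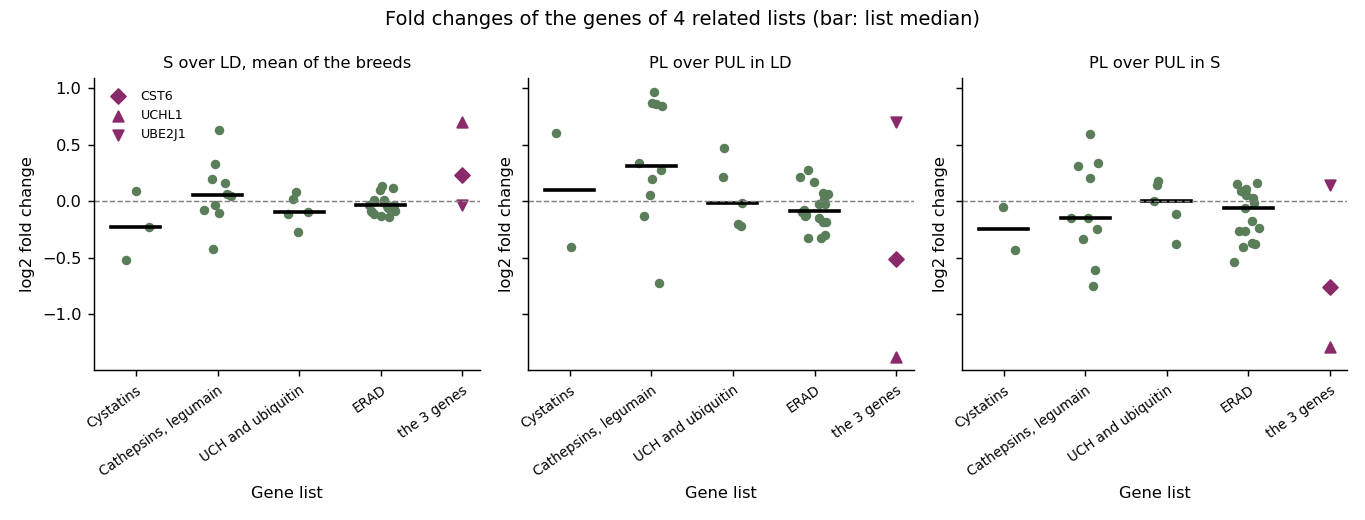
Log2 fold changes (vertical axis) of the genes of 4 related lists and of CST6, UCHL1 and UBE2J1 (horizontal axis) for S over LD and for PL over PUL in each muscle; green points are genes, black bars list medians and purple symbols the 3 chosen genes. In the breed panel for S the list genes run down to -0.75, while UCHL1 is at -1.30 and CST6 at -0.76, both chosen on that comparison.

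Markers of other cell types were summed per library and set beside the breed values. For the nerve and Schwann cell list, 5 of 10 genes had an ID. Their summed level had a median of 3.44 CPM in PUL LD, 4.66 in PUL S, 4.66 in PL LD and 7.34 in PL S. These medians were higher in PL within each muscle, where UCHL1 was lower, and the libraries of the breeds overlapped. The epidermis list, with 5 of 8 genes, summed to between 0.635 and 2.98 CPM in all libraries. Its medians were 1.86 CPM in PUL LD, 1.76 in PUL S, 1.18 in PL LD and 1.23 in PL S, higher in PUL as for CST6. The libraries overlapped widely, in LD from 1.12 to 2.56 CPM in PUL and from 0.713 to 2.98 CPM in PL. In S they ran from 0.972 to 2.51 CPM in PUL and from 0.635 to 2.00 CPM in PL. KRT10 and DSP made up nearly all of the sum, with means over all libraries of 0.603 and 0.980 CPM. KRT1, KRT15 and DSG1 were at 0 in every library of at least 1 group. The fibroblast list, with 5 of 6 genes, had medians of 484.8 CPM in PUL LD, 953.6 in PUL S, 1269 in PL LD and 1946 in PL S. The hepatocyte list, with 7 of 10 genes, had medians of 62.4, 61.5, 14.8 and 19.9 CPM in the same order. The part of these cells' RNA in the breed values was not tested beyond leaving out PUL pigs 1 to 5.

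Fibre type and fat markers overlapped between the groups. The slow fibre list, with 4 of 8 genes, had medians from 5120 to 6484 CPM over the 4 groups, and the fast fibre list, with 2 of 8, from 6232 to 9752 CPM. The adipocyte list, with 3 of 7 genes, had medians from 16.5 CPM in PL S to 36.4 CPM in PUL LD. The satellite cell list, with 3 of 4 genes, had medians from 31.9 to 38.4 CPM. Their part in the values of the 3 genes was not tested.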

How the data were processed

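Muscle RNA of 16 pigs was sequenced by the authors after ribosomal RNA depletion as single reads, trimmed, and counted per gene with RSEM and Bowtie 2 on Sscrofa10.2; CASAVA 1.8.2 is also named in the submitters' processing notes. The deposited gene table holds expected counts, which were rounded to whole numbers. The transcript table of expected counts that the authors deposited served only to compare the 3 genes with their transcripts. Groups and pig numbers came from the labels. The 25322 gene IDs were named through a symbol table (11804 matched); no coordinates or sequences were used. Library totals were 8821273 to 24761853.

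edgeR 4.0.16 (limma 3.58.1, R 4.3.3) quasi-likelihood tests with TMM factors and the edgeR low-count filter were fitted across all genes, with Benjamini-Hochberg adjustment: S against LD over 32 libraries with the pig as block, and PL against PUL within each muscle. A gene was called at an adjusted p at or under 0.05 and a fold of at least 1.3. The block rests on the pig number in the labels, which names the same gilt. Over genes, the deviations of a pig's LD and S libraries had r over 0.1 in 11 of 16 pigs (median 0.196, lowest -0.52). In only 4 of 16 pigs was this r higher than with the S library of every other pig of the breed. The pairing was therefore taken from the labels and not from the counts. Levels per pig used log2(CPM + 0.5). Scripts were tested on simulated data. DESeq2 1.42.0, RLE factors, other filters, both muscles in one fit, the other block and leaving out pigs were alternatives.

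The named genes were the 3 chosen ones, the 5 most like each by Spearman's rho, and fixed partners (CSTB, CST3, LGMN, CTSB, CTSL, UCHL3, UCHL5, BAP1, UBE2J2, UBE2G2, SYVN1, SEL1L) where tested, with up to 4 called genes per list; CTSC, UBB, RNF5, STUB1, MARCHF6, ERLEC1 and VCP were added after their values were seen. No ID was paired with CST3 or SYVN1. The members and lists were chosen with earlier results of these data known. No 2 libraries of a group agreed within sampling noise.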

Additional observations from a re-analysis of the deposited data

Results flagged for a closer look

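In 18 sets of 8 values (each gene by breed and muscle, and the difference within a pig by breed), 1 value lay far from the others, where chance gives about 1 in 20 sets. It was the UCHL1 difference between S and LD in PUL pig 5, at -1.23 on the log2(CPM + 0.5) scale, while the other 7 PUL pigs lay above 0. Without pig 5 the fitted log2 fold change of UCHL1, S over LD in PUL, was 0.95, against 0.69 with it.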

How the results depend on the processing

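Of the main values and counts recomputed under each alternative, 392 were labelled the same, 18 stronger, 13 weaker and 2 reversed. For a tested value, the same meant an unchanged direction and side of the adjusted p threshold. For a value given with no test, it meant a move smaller than the SD between pigs on the log2 scale. A count was the same if unchanged or within 1.5 times. The number of genes called between the muscles was 11, and became 0 when each library had to hold 10 counts or more, 65 with DESeq2, 0 without PUL pigs 1 to 5 and 4 to 78 with 1 pig left out (78 without PL pig 14, 4 without PUL pig 17 or PL pigs 7, 9, 10 or 15). Between the breeds in LD it was 0, and became 4 with no filter, 19 with DESeq2, 6 with both muscles in one fit, 1 without PUL pigs 1 to 5 and 0 to 1 with 1 pig left out. In S it was 0, and became 1 with RLE factors, 4 with no filter, 103 with DESeq2, 70 with both muscles in one fit, 1 without PUL pigs 1 to 5 and 0 to 1 with 1 pig left out. UBE2J1, S over LD, was -0.04, ran from -0.085 (without PL pig 15) to 0.0415 (without PL pig 14) with 1 pig left out, and was 0.00378 without PUL pigs 1 to 5. The cause was not tested. Without the pig as a block, 16 genes were called between the muscles. With the label's replicate number as a block, which names different pigs in the breeds, 0 genes were called between the breeds in LD and 0 in S, and the log2 fold changes were -1.39 for UCHL1 and -0.41 for CST6 in LD and 0.07 for UBE2J1 in S; the block changed no call of the 3 genes. Depth limits UCHL1 and UBE2J1 most, at medians of 91 and 77.5 counts.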
